A study of Mus musculus with 6 samples.

Results

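The neutrophil granule protein genes are 10 mouse genes chosen by name: Mpo, Elane, Prtn3 and Ctsg of the primary granule, Camp, Ngp, Ltf and Lcn2 of the secondary granule, and S100a8 and S100a9, whose products fill the cytosol of the same cells. All 10 were found among the 55401 genes of the count table by matching Ensembl identifiers to GENCODE M21, and all 10 passed the filter on low counts. The table holds 6 bulk RNA libraries of 2000 sorted cells each from mouse bone marrow, 3 in each of 2 groups.

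The LSK group is Lin-negative, Sca-1+ and c-Kit+ cells, a gate that holds blood stem cells and early progenitors, from untreated wild-type C57BL/6 mice of 6 to 8 weeks. The ESC-derived group is Lin-negative, Sca-1+ and c-Kit- cells from the marrow of primary recipients given sorted CD144+ cells, where CD144 is the endothelial cadherin encoded by Cdh5. Its genotype is labelled wild type and its treatment as differentiation of embryonic stem cells (ESCs). The labels used here name no ESC line, recipient strain or time after transplantation, and do not say whether the recipients' own cells were gated away. The groups differ in origin, host and c-Kit gate together, and these cannot be told apart. Nothing in the labels says that replicates came from separate cultures or animals, so the p-values measure only the spread between these libraries, which may be technical.

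Neutrophils pack antimicrobial proteins into granules that are made in a fixed order as the cell matures in the marrow. Primary (azurophil) granules are filled at the promyelocyte stage with myeloperoxidase and serine proteases, secondary (specific) granules at the myelocyte and metamyelocyte stages with lactoferrin, cathelicidin and lipocalin, and gelatinase granules last. Each class is set at transcription, with PU.1, C/EBPα and RUNX1 known for the early genes and C/EBPε for the late ones, and the transcripts of the early genes are largely gone before the mature neutrophil leaves the marrow.

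The members lie at few loci (mm10). Elane (chromosome 10, 79886247 to 79888215) and Prtn3 (79874476 to 79883174) are 3072 bases apart on the plus strand. Camp (chromosome 9, 109847379 to 109849617, minus strand), Ngp (110419747 to 110423012, plus) and Ltf (111019271 to 111042767, plus) follow each other on chromosome 9, with 570129 bases between the first pair and 596258 between the second. S100a8 (chromosome 3, 90668978 to 90670035, plus) and S100a9 (90692632 to 90695721, minus) are 22596 bases apart. Mpo is on chromosome 11 (87793581 to 87804413, plus), Ctsg on chromosome 14 (56099881 to 56102574, minus) and Lcn2 on chromosome 2 (32384633 to 32388252, minus). All 10 are annotated as protein coding. The annotated span of Mpo holds the antisense gene Gm11505, and that of Prtn3 overlaps the minus-strand gene Plppr3 at its 5' end. The library kit does not mark strand, so reads shared by these overlapping pairs could not be told apart.

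Promoter sequence was read for all 10 members from RefSeq (GRCm38.p6), and the 150 bases upstream were cut to a stretch free of annotated exons. The 6 stretches that held a match to a short factor motif are printed. Chosen that way, they cannot show how far genes of 1 granule class share motifs. The stretches of Lcn2 and S100a8 held no match, and Mpo and Camp had no base free of exons. Each printed stretch lies upstream of the RefSeq start site and touches no exon annotated in GENCODE M21. The Prtn3 stretch lies within the GENCODE span of that gene, which begins farther upstream than the RefSeq start. Capitals mark a match to a motif on either strand. Elane is at chr10:79886162-79886246, plus strand, Prtn3 at chr10:79879517-79879613, plus strand, Ctsg at chr14:56102575-56102724, minus strand, Ngp at chr9:110419658-110419746, plus strand, Ltf at chr9:111019142-111019270, plus strand and S100a9 at chr3:90695722-90695871, minus strand.
Elane: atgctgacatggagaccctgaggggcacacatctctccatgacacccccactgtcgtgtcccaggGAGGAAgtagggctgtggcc
Prtn3: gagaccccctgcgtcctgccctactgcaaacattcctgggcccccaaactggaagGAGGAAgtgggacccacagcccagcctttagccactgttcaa
Ctsg: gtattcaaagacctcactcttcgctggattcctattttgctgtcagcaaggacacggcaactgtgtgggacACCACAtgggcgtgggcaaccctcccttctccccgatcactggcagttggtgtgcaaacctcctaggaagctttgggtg
Ngp: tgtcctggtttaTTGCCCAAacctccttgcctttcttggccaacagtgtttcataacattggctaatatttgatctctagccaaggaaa
Ltf: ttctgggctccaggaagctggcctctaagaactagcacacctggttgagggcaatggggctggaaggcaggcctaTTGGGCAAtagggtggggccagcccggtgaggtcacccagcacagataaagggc
S100a9: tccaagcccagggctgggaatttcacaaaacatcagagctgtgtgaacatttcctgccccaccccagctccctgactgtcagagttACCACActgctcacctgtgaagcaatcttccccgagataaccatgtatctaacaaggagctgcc

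Elane and Prtn3 each carry the PU.1-type letters GAGGAA on the plus strand, at -85 to -80 and at -95 to -90 from the start site. Over the 250 bases upstream of the RefSeq start site, GAGGAA or its reverse TTCCTC was found in all 4 primary granule members and in Ltf, Lcn2 and S100a8. This is 7 of 10 members beside 23.3% of the 32851 RefSeq promoters. Some matches counted here and below, in Prtn3, Lcn2, S100a8 and Ngp, lie within the GENCODE span of the gene. The C/EBP-type letters TTGCNNAA, in either orientation, were found in Ngp, Ltf, Lcn2 and S100a9 and in no primary granule member, which is 4 of 10 members beside 9.56% of promoters. In Ngp the matches lie at -138 to -131 and, outside the printed stretch, at -11 to -4, and in Ltf at -75 to -68. The RUNX-type letters TGTGGT, seen in the printed strand as ACCACA, were found in Ctsg (-79 to -74) and S100a9 (-64 to -59), which is 2 of 10 members beside 14% of promoters. No 2 of the motif matches overlapped in the printed stretches. A match describes the letters only.

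Library totals ran from 41580006 to 49269286 counts. Values of 4 were more frequent than 3 or 5 in every library, so 1 sequenced fragment was taken as about 4 counts, and a value of 0 allows up to 12 counts, or 0.247 to 0.285 CPM (counts per 1000000 counts of the library). Intervals and this floor cover counting error only. The c-Kit gene Kit fitted the gates, with 2081 to 2550 counts in LSK and 2 to 6 in ESC-derived libraries. Cdh5, the gene of the protein on which the transplanted cells and not the sequenced cells were sorted, had 8 counts in 1 LSK library and 0 elsewhere. LSK replicate 2 stood apart, with a value between those of the other LSK libraries for 62.4% of the tested genes, against 18.2% to 36.3% for any other library within its group. Results below are given without it where that ends a call named here or changes a printed count of calls for a gene list.

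The 10 members split by granule class. The 6 genes of the secondary granule and the S100 pair were higher in the ESC-derived cells, by 8.23-fold to 13.5-fold, and each rise passed the test. The 4 primary granule genes were all lower in every ESC-derived library than in every LSK library, but only Prtn3 passed the test. Across all tested genes, 22.6% were higher and 27.2% lower without any overlap of the groups. ESC-derived replicate 3 held 10.4 CPM of the 4 primary granule genes together, against 250 and 227 CPM in ESC-derived replicates 1 and 2. Members were tested with edgeR's quasi-likelihood test fitted to all 16211 genes that passed the filter, with Benjamini-Hochberg adjustment and a threshold of 0.05, so 6 members were called higher beside 14.8% of all tested genes and 1 was called lower beside 15.2%. In either direction 30.0% of all tested genes were called. The share called lower was 20.9% with DESeq2, 19.7% with limma-voom and 13.7% with edgeR without ESC-derived replicate 3. The same 6 members were called higher in each of the 15 alternative analyses, and the count called lower ran from 0 to 3 when 1 library was left out. In these bulk samples fewer cells of a type and less RNA per cell cannot be told apart.

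**Figure D1:**
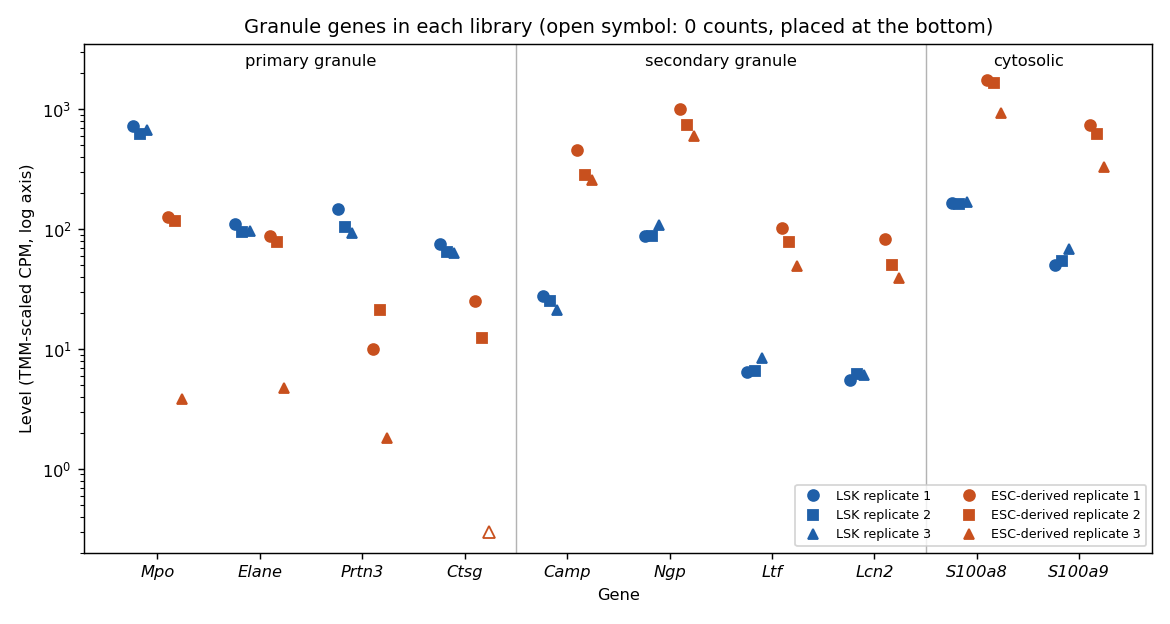
CPM of each of the 10 members in each of the 6 libraries, on a log10 axis, with 1 point per library and an open symbol at the bottom for 0 counts. The secondary granule and S100 genes lie higher in all 3 ESC-derived libraries than in any LSK library, the primary granule genes lie lower, and ESC-derived replicate 3 has 3.82 CPM of Mpo and 0 of Ctsg.

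Mpo encodes myeloperoxidase, the haem enzyme that makes hypochlorous acid and the most abundant protein of the primary granule. It was measured at 723, 623 and 674 CPM in LSK replicates 1 to 3 and at 127, 116 and 3.82 CPM in the ESC-derived replicates, all CPM being scaled by the trimmed mean of M-values (TMM). The groups did not overlap, and ESC-derived replicate 3 was lowest of all 6. The means were 673 ± 50.2 and 82.4 ± 68.3 CPM (SD, n = 3 each), a log2 difference of -3.03 (SE 1.04) with an edgeR adjusted p of 0.0699, which did not pass. Without ESC-derived replicate 3 the edgeR difference was -2.47 (SE 0.116, adjusted p 0.000191), and Mpo also passed with DESeq2 (adjusted p 0.0216) and limma-voom (-4.22, adjusted p 0.0118) on all 6 libraries. The call for Mpo thus differed between tools and with that 1 library.

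Elane encodes neutrophil elastase, the serine protease most often mutated in inherited neutropenia. It was measured at 111, 94.4 and 96.1 CPM in LSK and 87.8, 77.5 and 4.77 CPM in ESC-derived libraries. The groups did not overlap, but the first pair of ESC-derived libraries lay just below the LSK range. The log2 difference was -0.83 (SE 0.85, edgeR adjusted p 0.528), and it was -0.28 (SE 0.14, adjusted p 0.192) without ESC-derived replicate 3. Elane passed in 0 of the 15 alternatives, with differences from -1.73 (limma-voom) to -0.28.

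Prtn3, the gene of proteinase 3, lies next to Elane and encodes a close relative of it. Its values were 147, 105 and 92.5 CPM in LSK and 10.1, 21.2 and 1.80 CPM in ESC-derived libraries. No ESC-derived library came near the LSK range. The log2 difference of -3.38 (SE 0.80), a 10.4-fold fall, passed the edgeR test with an adjusted p of 0.0194. The call was lost without LSK replicate 1 (adjusted p 0.0556), LSK replicate 2 (0.0507) or ESC-derived replicate 1 (0.0674), with differences of -3.17, -3.47 and -3.32, and it was kept without ESC-derived replicate 2 (-4.27, adjusted p 0.0178) or ESC-derived replicate 3 (-2.88, adjusted p 0.00718). In ESC-derived replicates 1 and 2, Elane was close to its LSK level and Prtn3 was not, and this difference between the adjacent genes was not tested.

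Ctsg encodes cathepsin G, a chymotrypsin-like protease of the primary granule. It was measured at 75.1, 64.1 and 63.3 CPM in LSK and 25.2, 12.3 and 0 CPM in ESC-derived libraries. The 0 in ESC-derived replicate 3 allows up to 0.253 CPM. The log2 difference was -2.43 (SE 1.41, edgeR adjusted p 0.254), and without ESC-derived replicate 3 it was -1.85 (SE 0.35, adjusted p 0.0162). It was -3.46 without ESC-derived replicate 1 (adjusted p 0.196) and -5.69 with limma-voom (0.055), the farthest from 0 of the 15 alternatives.

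ESC-derived replicate 3 held 1.73% of the group's Mpo counts, 3.14% of its Elane counts, 6.05% of its Prtn3 counts and none of its Ctsg counts. It held 21.2% to 28.2% of the counts of each of the other 6 members. The mean of ESC-derived replicates 1 and 2 was 31.8 times the value of replicate 3 for Mpo, 17.3 times for Elane and 8.71 times for Prtn3, against 1.43 to 2.08 times for the secondary granule and S100 genes. By a rule chosen after these values were seen, genes of at least 5 CPM in both other ESC-derived libraries and at or below 0.1 of each of them in replicate 3 numbered 50 of 8611 (0.581%), and they included Mpo, Elane and Ctsg. Ms4a3, a membrane protein gene of granulocyte-monocyte progenitors, was also among them, with 23.0, 11.9 and 0.127 CPM. Replicate 3 did not have the lowest total of the group, with 49269286 counts.

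Camp encodes the cathelicidin precursor, the antimicrobial peptide of the secondary granule. It was measured at 27.6, 25.1 and 21.3 CPM in LSK and at 454, 283 and 258 CPM in ESC-derived libraries. The groups lay far apart, with means of 24.7 ± 3.19 and 332 ± 107 CPM (SD, n = 3 each). The log2 difference of 3.75 (SE 0.26) passed the edgeR test with an adjusted p of 0.00015.

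Ngp, the neutrophilic granule protein, is a cathelin-related secondary granule protein of mice. It was measured at 88.3, 88.0 and 109 CPM in LSK and 1005, 745 and 598 CPM in ESC-derived libraries. Every ESC-derived library was several times above every LSK library. The log2 difference was 3.04 (SE 0.22, edgeR adjusted p 0.000172). The ratio of Ngp to Camp counts was 3.20, 3.51 and 5.13 in LSK and 2.21, 2.63 and 2.32 in ESC-derived libraries.

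Ltf encodes lactoferrin, the iron-binding protein that defines the secondary granule. It was measured at 6.45, 6.59 and 8.47 CPM in LSK and 101, 78.3 and 49.2 CPM in ESC-derived libraries. Lcn2 encodes lipocalin 2, which binds bacterial siderophores. Its values were 5.53, 6.24 and 6.07 CPM in LSK and 83.4, 50.2 and 39.0 CPM in ESC-derived libraries. Both genes were low in all LSK libraries and separated from them in all ESC-derived ones, with log2 differences of 3.41 (SE 0.32) for Ltf and 3.27 (SE 0.33) for Lcn2 and edgeR adjusted p of 0.000485 and 0.000676.

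S100a8 and S100a9 encode the subunits of calprotectin, the calcium- and zinc-binding complex of neutrophil and monocyte cytosol. S100a8 was measured at 165, 161 and 169 CPM in LSK and 1769, 1669 and 932 CPM in ESC-derived libraries. S100a9 was measured at 49.8, 54.5 and 68.4 CPM in LSK and 741, 626 and 328 CPM in ESC-derived libraries. Both were lowest in replicate 3 among the ESC-derived libraries and still above every LSK value. The log2 differences were 3.14 (SE 0.25, edgeR adjusted p 0.000267) and 3.30 (SE 0.32, adjusted p 0.000635). Scaled to transcript length, the ratio of S100a8 to S100a9 was 2.63 to 3.54 in LSK and 2.55 to 3.03 in ESC-derived libraries, so the ranges overlapped while both genes rose.

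**Figure D2:**
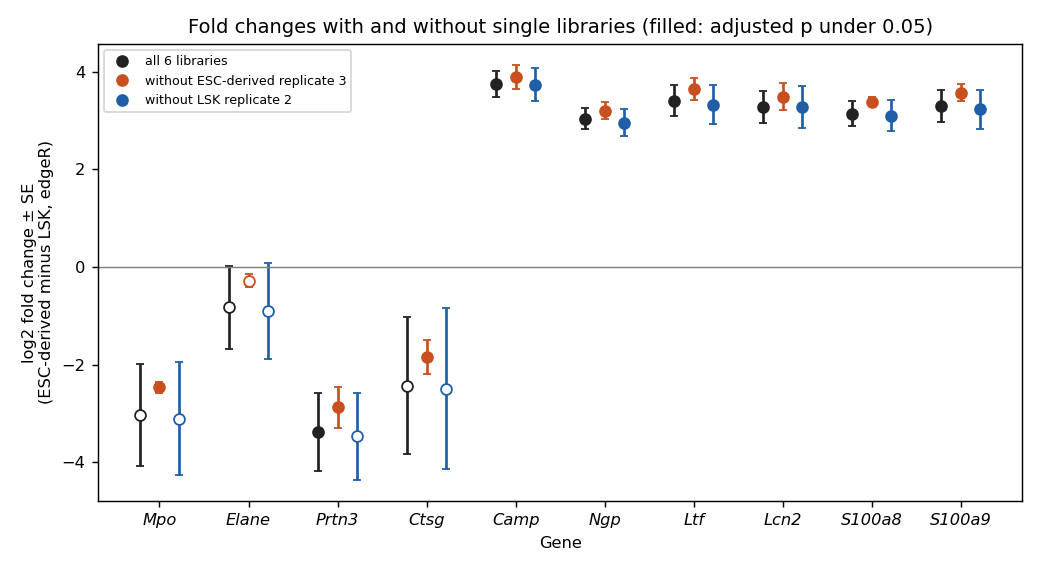
The log2 fold change (ESC-derived minus LSK) of each member with a standard error derived from the edgeR F statistic. Values are shown for all 6 libraries, without ESC-derived replicate 3 and without LSK replicate 2, filled where the adjusted p was under 0.05. The 6 secondary granule and S100 genes lie between 3.04 and 3.75 with all libraries, and Mpo moves from -3.03 with an SE of 1.04 to -2.47 with an SE of 0.116 when ESC-derived replicate 3 is left out.

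By class, the primary granule members took 0.120%, 0.0973% and 0.0956% of all counts in LSK and 0.0227%, 0.0201% and 0.000999% in ESC-derived libraries. The last of these rests on 492 counts, with a 95% Clopper-Pearson interval of 0.000830% to 0.00119% computed at 4 counts per fragment. The secondary granule members took 0.0138% to 0.0150% in LSK and 0.149%, 0.102% and 0.0907% in ESC-derived libraries. The S100 pair took 0.0236% to 0.0245% in LSK and 0.228%, 0.203% and 0.121% in ESC-derived libraries. For all other shares the half-width of the interval was at most 5.20% of the share. The ratio of secondary to primary granule counts was 0.121, 0.142 and 0.156 in LSK and 6.57, 5.09 and 90.9 in ESC-derived libraries, so the balance of the classes was opposite in the groups and most uneven in ESC-derived replicate 3. The ratio of secondary granule to S100 counts stayed between 0.504 and 0.749 in all 6 libraries.

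**Figure D3:**
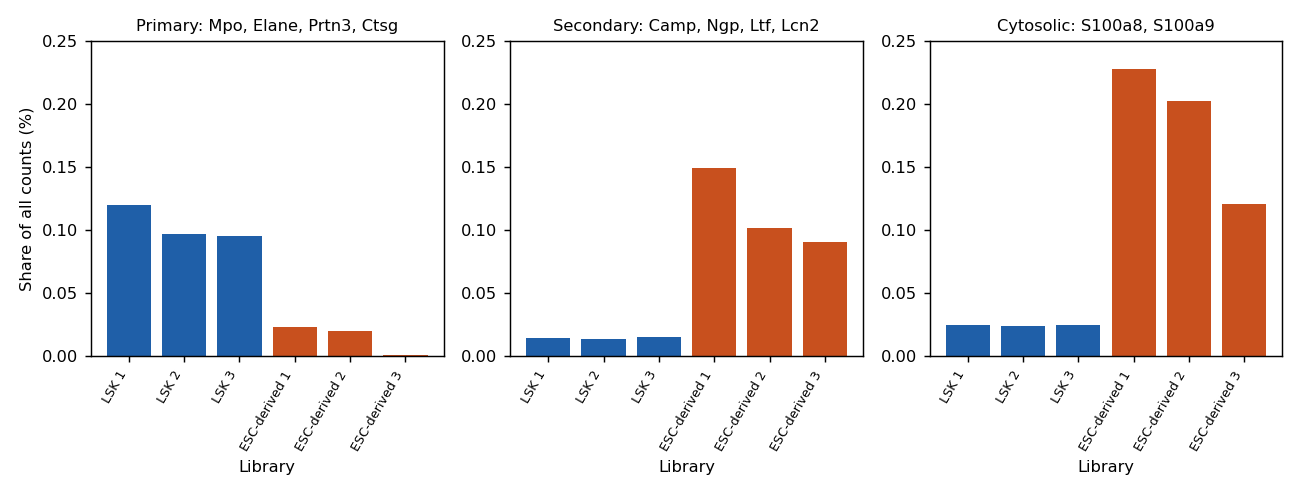
Percent of all counts taken by the primary granule, secondary granule and S100 members in each library, with 1 bar per library on a linear axis from 0. Primary granule genes take the largest share of counts of the 3 classes in each LSK library, at 0.0956% to 0.120%, and the smallest in each ESC-derived library, at 0.000999% to 0.0227%.

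Per kilobase of the principal transcript, the LSK level was highest for S100a8 at 339 ± 8.39 CPM per kb (SD, n = 3), followed by Mpo at 245 ± 18.3. Prtn3 (112), S100a9 (111) and Elane (102) came next with library ranges that overlapped their neighbours in the order. Ngp (77.9) and Ctsg (67.4) also overlapped, and Camp (32.5), Lcn2 (6.50) and Ltf (2.61) were each apart from the one above. In the ESC-derived group S100a8 led again at 2998 ± 941 CPM per kb, above S100a9 (1089), Ngp (640) and Camp (438), of which neighbours overlapped in range. Within each of the 3 libraries, S100a9 was above Ngp and Ngp above Camp. Below a gap came Lcn2 (62.9), Elane (57.6), Mpo (30.0), Ltf (27.8), Ctsg (12.5) and Prtn3 (10.8), each overlapping the next in range. Elane was above Mpo and Ltf above Ctsg in all 3 libraries, and the other neighbours among these genes changed order between libraries. Mpo thus stood at rank 2 of 10 in LSK and rank 7 in the ESC-derived group, and Camp at rank 8 and rank 4. Dividing by the length of all annotated exons moved Prtn3 from rank 3 to rank 6 in LSK and Lcn2 from rank 5 to rank 8 in the ESC-derived group.

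Other genes are given list by list, to be read beside the 14.8% of all tested genes called higher and the 15.2% called lower. Among 11 tested genes of other primary granule and lysosomal proteins, 3 rose and 6 fell, with a median log2 difference of -0.74 beside -0.07 over all tested genes. Prss57, a serine protease of the primary granule whose gene lies 83515 bases from Prtn3, was measured at 31.7, 31.1 and 31.8 CPM in LSK and 2.19, 3.59 and 2.85 CPM in ESC-derived libraries. It fell by 3.45 on the log2 scale (SE 0.29, edgeR adjusted p 0.000306), and ESC-derived replicate 3 was not its lowest library. The lysosomal acid glucosidase gene Gaa fell by 2.47. The lysosomal cathepsin genes Ctsd and Ctsb, expressed in most cells, rose by 2.38 and 1.37 on the log2 scale. Lyz2, the lysozyme gene of neutrophils and macrophages, stood at 698, 641 and 656 CPM in LSK and 638, 569 and 329 in ESC-derived libraries and did not pass (edgeR adjusted p 0.285). Without LSK replicate 2 the counts of this list were 2 higher and 4 lower, and 4 were also lower without LSK replicate 1.

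Among 9 tested genes of other secondary granule proteins, 4 rose and 2 fell (median log2 difference 1.91). Cyba, the small subunit of the membrane oxidase, rose by 2.62 on the log2 scale, and Chil3, a chitinase-like protein, by 1.91. Against the direction of the secondary granule members, Fcnb, the gene of ficolin B, had 748 counts in LSK and 0 in ESC-derived replicates 1 to 3. At a floor of 12 counts over the group, it was at least 58.6-fold lower there. Slpi, an inhibitor of elastase and cathepsin G, fell by 1.57 (edgeR adjusted p 0.0202), a call that was lost without any 1 of LSK replicates 1, 2 or 3 or ESC-derived replicate 2 (adjusted p 0.0596 to 0.0636). Without LSK replicate 2 the list had 3 higher and 1 lower.

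Of 11 tested tertiary granule and late neutrophil genes, 5 rose and none fell, with a median log2 difference of 2.69. Pglyrp1, a peptidoglycan-binding granule protein, was measured at 50.8, 48.3 and 57.7 CPM in LSK and 332, 349 and 330 CPM in ESC-derived libraries, a rise of 2.69 (SE 0.12, edgeR adjusted p 1.98e-05). Retnlg, a resistin-like gene of late neutrophils, rose by 3.08. Mmp9, the gelatinase that names the tertiary granule, was at 0, 1.88 and 2.81 CPM in LSK and 25.9, 23.0 and 24.8 CPM in ESC-derived libraries and just failed the test (edgeR adjusted p 0.061). The count that rose was 3 without LSK replicate 2 or without ESC-derived replicate 2, and 8 with DESeq2.

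In the list of genes that activate, inhibit or sort granule proteases, 3 of 10 rose and 2 fell (median log2 difference -0.10). Ctsc, the dipeptidyl peptidase that activates elastase, proteinase 3 and cathepsin G, rose by 1.24 (edgeR adjusted p 0.00595), while Prtn3 itself fell. Cst7, a cystatin that inhibits cathepsin C, rose by 3.18. Serpinb1a, the cytosolic inhibitor of the same proteases, fell by 1.87, and G6pc3, whose loss causes neutropenia, fell by 1.59. Srgn, the proteoglycan that holds primary granule proteins, stood at 983 to 996 CPM in LSK and 829 to 940 CPM in ESC-derived libraries and did not pass (edgeR adjusted p 0.255). Without LSK replicate 2 the count that rose was 2. Among the NADPH oxidase genes, Cyba, Rac2 and Ncf4 rose.

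In a list of 12 granulocyte transcription factors that also holds the progenitor gene Ms4a3, 1 rose and 5 fell (median log2 difference -1.03). The riser was Cebpe, the factor needed for secondary granules, at 2.0, 2.21 and 2.50 CPM in LSK and 15.8, 7.49 and 7.46 CPM in ESC-derived libraries, a log2 difference of 2.19 (SE 0.48, edgeR adjusted p 0.0146). That call was lost without LSK replicate 1 (adjusted p 0.0509) or LSK replicate 2 (0.0722). Spi1, which encodes PU.1, fell by 5.57, from 271, 285 and 307 CPM to 2.45, 10.6 and 5.20 CPM, and Myb, a progenitor factor, fell by 3.45. Cebpa, the factor of early granulocyte commitment, had 2.85 to 6.04 CPM in LSK and 0.338 to 2.20 CPM in ESC-derived libraries and did not pass (edgeR adjusted p 0.175), nor did Gfi1 (adjusted p 0.3). The count that fell was 3 without LSK replicate 1, 2 or 3 or without ESC-derived replicate 1.

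Among 12 tested neutrophil receptor genes, 2 rose, 2 fell and 8 did not pass. Csf3r, the receptor for granulocyte colony-stimulating factor, was measured at 40.6, 49.2 and 54.2 CPM in LSK and 1.52, 0.638 and 0.253 CPM in ESC-derived libraries. It fell by 5.90 (SE 0.67, edgeR adjusted p 0.00113), opposite in direction to the secondary granule members. Csf2ra, a receptor chain for granulocyte-macrophage colony-stimulating factor, fell by 3.54. Ly6g, the surface antigen used to sort mouse neutrophils, was higher at 1.61 to 5.43 CPM against 0.0876 to 0.412 CPM (log2 difference 4.01, edgeR adjusted p 0.0204), but not without LSK replicate 2 (adjusted p 0.0925), LSK replicate 3 (0.0742) or ESC-derived replicate 3 (0.0568). Ltb4r1, the leukotriene B4 receptor, rose by 1.35 (adjusted p 0.0166), a call lost without LSK replicate 2 (0.0751), which left none of the list higher.

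Of 10 other S100 genes tested, 6 rose and 2 fell. S100a6 rose by 6.09 and S100a10 by 2.63 on the log2 scale, more widely expressed genes than the calprotectin pair, and S100a1 fell by 2.44. S100a5 had 287 counts in LSK and 0 in ESC-derived libraries. Its call was lost without LSK replicate 2 (adjusted p 0.0513), which left 1 of the list lower. Of 8 tested serine proteases that other cells keep in granules, 5 rose and 2 fell: Gzmb, a granzyme of cytotoxic lymphocytes, rose by 5.49, whereas Mcpt8, a basophil protease whose gene lies 14608 bases from Ctsg, was at 28.7 to 87.3 CPM in LSK and 0 to 0.169 CPM in ESC-derived libraries. Gzmk, another granzyme, was at 0 to 0.0876 CPM in LSK and 99.9 to 117 CPM in ESC-derived libraries, and the basophil protease Prss34 was at 3.42 to 74.4 CPM and 0 to 0.0845 CPM.

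**Figure D4:**
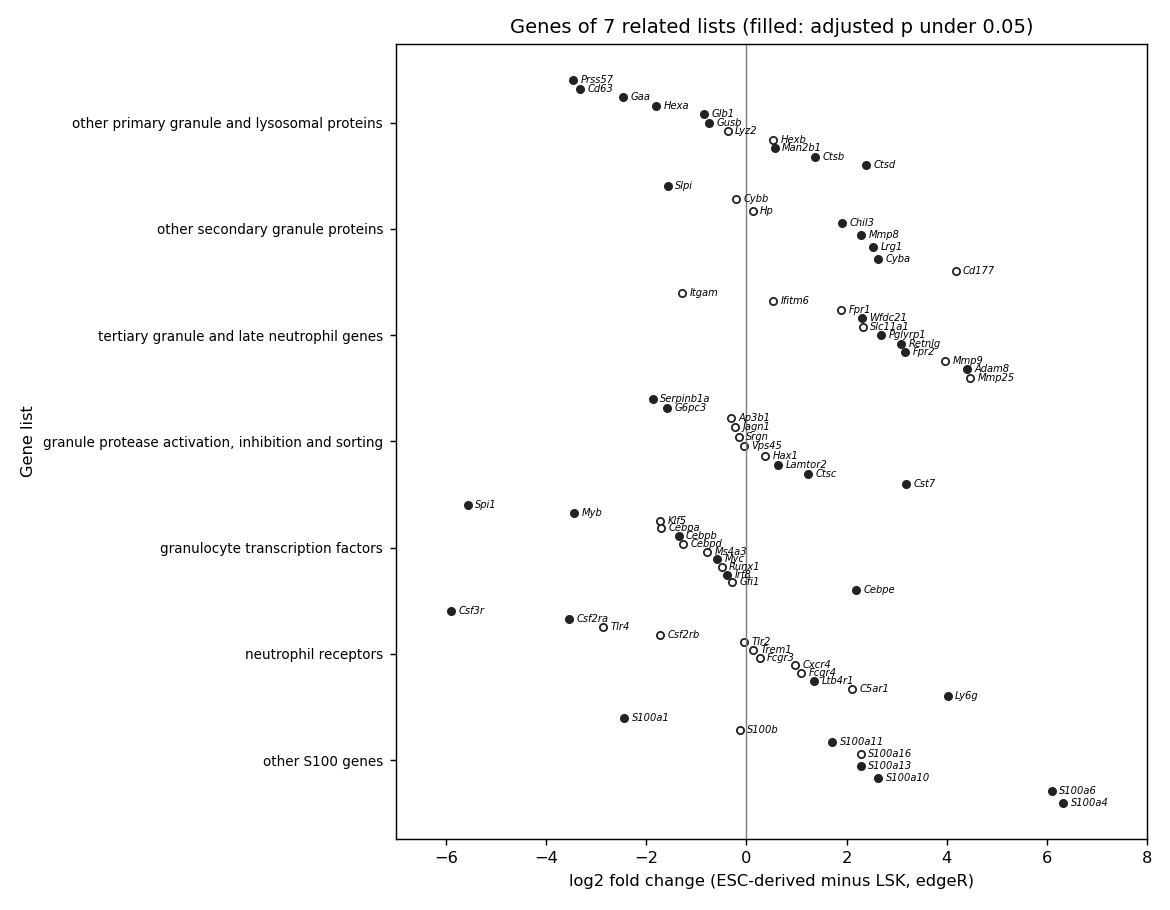
The log2 fold change (ESC-derived minus LSK) of the tested genes of 7 of the lists, 1 point per gene, filled where the edgeR adjusted p was under 0.05; genes with 0 counts throughout 1 group are left out. The late neutrophil list lies mostly to the right (median 2.69) and Csf3r and Spi1 lie far to the left.

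Markers of other cell types differed between the groups, in both directions. Of 8 tested mature neutrophil markers, several of which the lists above also hold, 4 rose and 1 fell, with a summed level of 61.6 to 74.5 CPM in LSK and 125 to 178 CPM in ESC-derived libraries. Without LSK replicate 2 only 1 of them was called higher, and the count was 2 when ESC-derived replicate 3, ESC-derived replicate 2 or LSK replicate 3 was left out. Most of the LSK sum of these markers was Csf3r, at a mean of 48.0 CPM against 0.804 CPM in ESC-derived libraries. Most of their ESC-derived sum was Retnlg, at a mean of 92.3 CPM against 10.9 CPM in LSK. The untested Stfa2l1 had 144 counts in ESC-derived replicate 1 and 0 in every other library. The eosinophil markers summed to 49.5 to 52.6 CPM in LSK and to 96.3, 1494 and 203 CPM in ESC-derived libraries, with 4 of 6 higher and Epx, the eosinophil peroxidase gene 59587 bases from Mpo, at 0 in LSK. With limma-voom 1 of the 6 was called higher, with no filter on low counts 2, and without LSK replicate 2 the count was 3. Monocyte markers summed to 438 to 481 CPM in LSK and 1165 to 1368 CPM in ESC-derived libraries, with 3 of 10 higher and 3 lower (2 higher without LSK replicate 2). Ly6c2 alone went from a mean of 167 to 997 CPM, which is most of the rise of the sum, and Ccr2 also rose. Among the 3 lower, Ms4a6c went from a mean of 72.7 to 7.07 CPM and F13a1 from 5.22 to 0.202 CPM. The sum of the basophil and mast cell markers fell, from 50.8 to 189 CPM in LSK to 0 to 0.380 CPM in ESC-derived libraries, with all 3 tested lower. Ms4a2 and Cma1 were at 0 in ESC-derived libraries and Fcer1a at 0 in both groups.

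The labelled gates were also checked. Stem and progenitor markers summed to 1906 to 1970 CPM in LSK and 45.1 to 94.8 CPM in ESC-derived libraries, with 9 of 10 lower and Hoxa9 at 0. T cell markers summed to 132 to 159 CPM in LSK and 12219 to 13118 CPM in ESC-derived libraries, with all 10 higher, although the gate was Lin-negative. B and plasma cell markers summed to 15983 to 20789 CPM in LSK and 182 to 223 CPM in ESC-derived libraries, with 7 of 10 lower and Igll1 at 0. The LSK gate was Lin-negative too, and its sum of B and plasma cell markers was above its stem and progenitor sum. Ighm alone had a mean of 13466 CPM in LSK. Erythroid markers summed to 1260 to 1296 CPM and 137 to 737 CPM, with 1 of 7 lower (3 without ESC-derived replicate 2 and 2 without ESC-derived replicate 3) and Alas2 at 0 in both groups. Car2, the 1 lower, held most of the LSK sum, at a mean of 987 CPM against 25.0 CPM in ESC-derived libraries. The other 6 tested did not pass, and the mean of Hba-a1 went up, from 103 to 232 CPM. Without ESC-derived replicate 1, or without ESC-derived replicate 3, 1 of the list was called higher. The untested Slc4a1 had 26 counts in ESC-derived replicate 1 and 0 in every other library. The part of these cell types in the members' differences was not tested.

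At the members' loci, genes within 100 kb did not all move with them. The counts are to be read beside the 14.8% of all tested genes called higher and the 15.2% called lower. The windows of S100a8 and S100a9 overlap, as do those of Elane and Prtn3, so most neighbours of either pair are counted for both genes. Around S100a8, 5 of 6 tested neighbours rose and 1 fell, S100a4, S100a6 and the member S100a9 among the risers. Around S100a9, 4 of 5 rose and 1 fell. Around Mpo, 2 of 4 rose, Epx among them, and none fell. Around Elane, 4 of 11 fell, the member Prtn3 among them, and none rose. Around Lcn2, 1 of 8 rose and 1 fell, and Mcpt8, the 1 tested neighbour of Ctsg, fell. Around Prtn3, 3 of 11 tested neighbours fell and none rose, among them Plppr3, which overlaps it, with 53.3 to 64.3 CPM in LSK and 0 to 1.26 CPM in ESC-derived libraries. None of the 5 tested neighbours of Ngp was called, 2 of the 4 next to Camp fell, and 1 of the 2 next to Ltf fell.

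By Pearson correlation of log2(CPM + 1) over the 6 libraries, among 8327 tested genes with a mean of at least 10 CPM, the genes of most similar pattern to Mpo were 5430427O19Rik (0.997), 1700017B05Rik (0.997) and Vezf1 (0.996). For Camp they were Arhgap9 (0.999), Ldha (0.999) and Slamf6 (0.999). The libraries fall into 2 groups, so any gene that differs between them correlates, and the values only describe likeness.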

How the data were processed

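Bulk RNA of 6 libraries was analysed, 3 per group. The authors deposited 1 table of estimated counts per Ensembl gene, all whole numbers, made with HISAT, StringTie and mm10, per the submitters' processing notes. Versions, annotation and settings: not given in the sources used here. Values were used as deposited. Columns were matched to libraries by the names in the header. Of 55401 identifiers, 55141 matched GENCODE M21 and 260 did not.

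The counts were tested with edgeR 4.0.16 in R 4.3.3 (filterByExpr, TMM, robust quasi-likelihood fit, two-sided, no replicate block). For edgeR fits the SE was derived as the size of the log2 fold change divided by the square root of the F statistic. DESeq2 1.42.0, limma-voom (limma 3.58.1), other scalings and filters, values divided by 4, a replicate block and leaving out each library were the 15 alternatives. On simulated counts for this comparison (15527 genes fitted, 50 changed genes per fold) the edgeR test recovered 20% of changes of 2-fold, 66% at 4-fold, 80% at 8-fold and 94% at 16-fold, and called 10 unchanged genes. CPM are TMM-scaled. Levels between genes were divided by transcript length.

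The members and lists were chosen with earlier results of these data known. Up to 2 genes per list and direction, by adjusted p, were to be named, with the members, sort genes and markers at 0. Gm11505, Ms4a3, Plppr3, Lyz2, Mmp9, Srgn, Ncf4, Cebpa, Gfi1, and S100a4 fall outside that rule and were chosen after their values were seen. Some items are not reported here.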

Additional observations from a re-analysis of the deposited data

How the results depend on the processing

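The 6 members higher in the ESC-derived group stayed 6 in all 15 alternatives, with log2 differences from 2.79 (Ngp) to 3.90 (Camp). The count of members called lower was 1 as reported, 2 with DESeq2, limma-voom or values divided by 4 (Mpo joining Prtn3), and 0 to 3 when 1 library was left out: 0 without LSK replicate 1, LSK replicate 2 or ESC-derived replicate 1, and 3 without ESC-derived replicate 3. The cause was not tested. Among all tested genes 4861 were called, 2716 to 4603 with 1 library left out, the lowest without LSK replicate 2. Scaling by library totals only moved the median of all tested genes from -0.07 to -0.31 and the split from 2395 higher and 2466 lower to 1756 and 3057, and no member changed direction. Same-numbered libraries of the 2 groups correlated at 0.0144, 0.0377 and 0.0168 in their deviations from group means, all under 0.1, so the numbers were not taken as pairs, although each library correlated best with its own number. With the replicate block 3220 genes were called, 6 members higher and 1 lower. The block ended the calls of Cebpe (adjusted p 0.065), Ly6g (0.0514), Ltb4r1 (0.0639) and S100a5 (0.0719), and left 1 of the mature neutrophil markers higher in place of 4. S100a5 was not tested under the stricter filter on low counts. With 3 libraries a group, and a self-test that recovered 66% of 4-fold changes, a primary granule gene that did not pass is not shown to be unchanged.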
